A study of Mus musculus with 6 samples.

Results

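Adipogenic regulators and lipid storage genes were examined in cultured mouse dermal fibroblasts, as 10 genes of a table with 46958 rows. The genes were picked by symbol: the transcription factor genes Pparg, Cebpa, Cebpb and Cebpd, and the lipid handling genes Fabp4, Lpl, Pnpla2, Plin2, Cd36 and Adipoq. Each had 1 row of its own. The cells came from the skin of newborn mice, were pooled over several animals, and are labelled either as a knockout of the nuclear receptor RORγ (RORγ-/-, here KO) or as wild type (RORγ+/+, here WT). Both genotypes were grown at early passage in charcoal-stripped serum and received 1 of 3 hydroxylated sterols (20(OH)L3, 20(OH)Cholesterol or 20(OH)7DHC) at 100 nM for 24 h in ethanol. The 3 KO and 3 WT libraries thus hold 1 library for each genotype and sterol. No library given ethanol alone was analysed here, so every library compared carries a sterol, and genotype cannot be told apart from any other difference between the 2 pools of cells.

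PPARγ is the nuclear receptor that drives the formation of fat cells. In cultured preadipocytes C/EBPβ and C/EBPδ are made early, and they turn on PPARγ and C/EBPα, which keep each other active and switch on genes for taking up, carrying and storing fatty acids. Skin fibroblasts include cells that can enter this path, and in mice RORγ has been described as a negative regulator of fat cell formation. Levels below are FPKM, which divide fragments by transcript length and library size. Differences are KO minus WT on the log2(FPKM + 1) scale, which understates the change of low genes, and come from limma with sterol as a second term over all 6 libraries. Adjusted p-values are Benjamini-Hochberg values over the 12673 rows whose mean reached 1 FPKM, and a gene was called at an adjusted p under 0.05. Wherever 3 values of a genotype are listed without a sterol name, the first is the library with 20(OH)L3, the next that with 20(OH)Cholesterol and the last that with 20(OH)7DHC.

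In the KO cells the late regulator Pparg and the lipid genes Fabp4, Lpl, Pnpla2 and Plin2 were higher, while the early regulators Cebpb and Cebpd were lower. Of the 10 genes, 8 could be tested, 5 were called higher and 2 lower in KO, and Cebpa was not called. Over all tested rows 2.43% were called higher and 6.64% lower. In 6 of the 8 genes every KO library lay above every WT library, a pattern held by 20.2% of all tested rows, and in 2 every KO library lay below every WT library, a pattern held by 22.9%. Pparg and Cebpa stayed under 1 FPKM in every WT library and entered the test through their KO values, so the counts describe these genes and support nothing beyond them. The median difference of the 8 genes was 1.36, against 0 over all rows tested. All 10 genes were chosen with earlier results of these data known, so this contrast too is description only. In this fit, leaving out a library with 20(OH)L3 or 20(OH)Cholesterol of either genotype left 0 of the 8 genes called, and over all tested rows 0 to 6 higher and 0 to 132 lower. Leaving out the KO library with 20(OH)7DHC left 1 of the genes called higher and 2 lower, against 8.16% and 6.34% of all rows. Leaving out the WT library with that sterol left 3 higher and 2 lower, against 8.64% and 6.55% of all rows. With the sterol term, leaving out either library of a sterol leaves the same KO and WT pairs. The fits without the KO and without the WT library of a sterol are therefore not separate checks. With 20(OH)L3 and 20(OH)Cholesterol, short transcripts were higher in KO than in WT, and with 20(OH)7DHC they were hardly so, with values given below with Fabp4. Which library of a sterol carries this, and its part in the calls, was not tested. Without the KO library with 20(OH)7DHC and without the sterol term, a fit added after seeing the data, limma called 6 of the 8 genes higher and 2 lower, but also 24.1% of all tested rows higher and 24.4% lower.

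**Figure D1:**
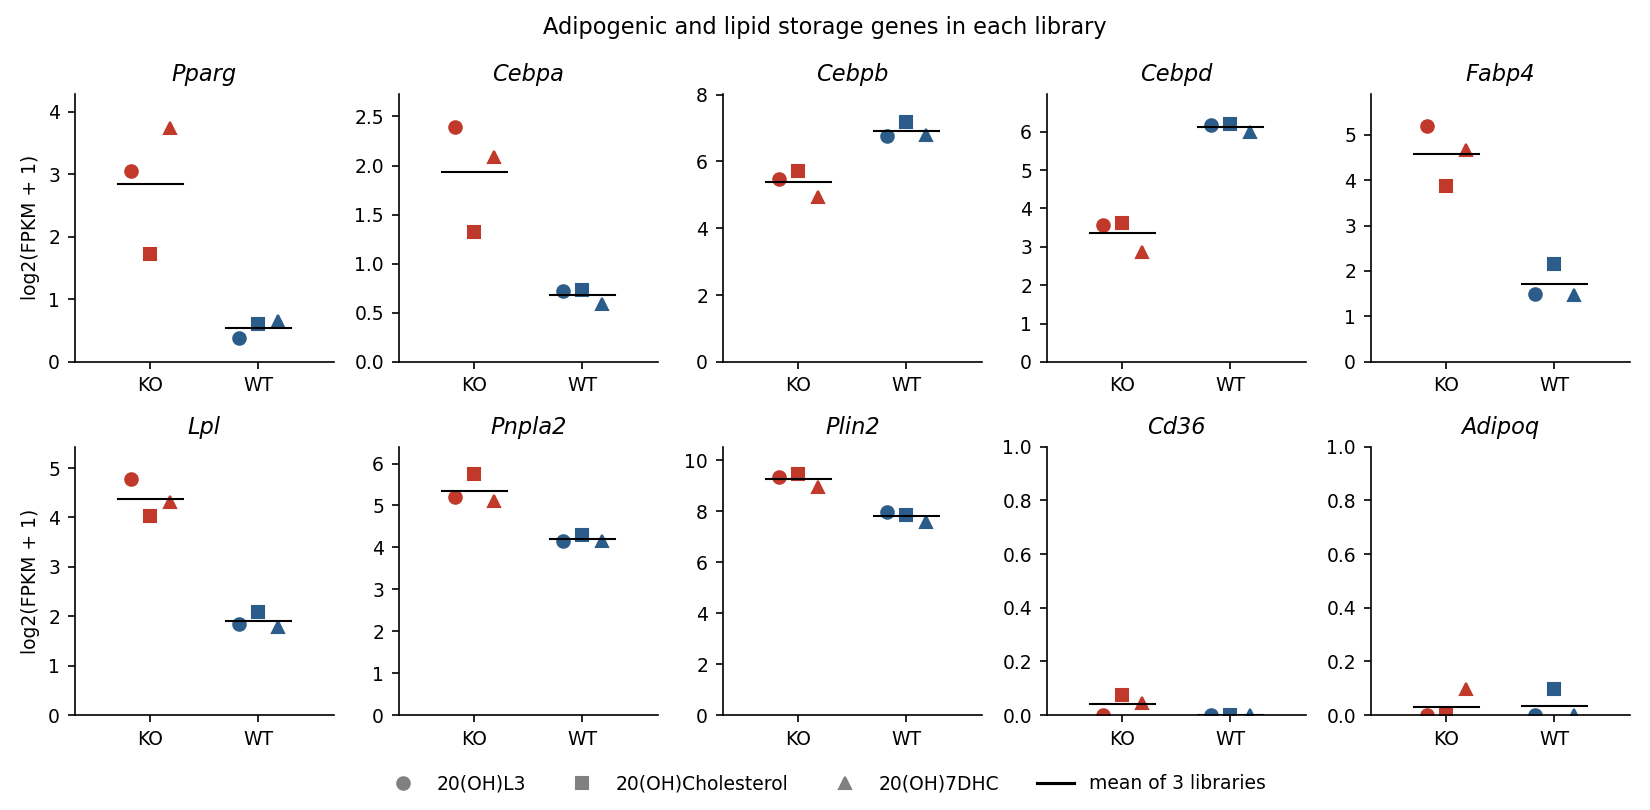
Level of each of the 10 genes as log2(FPKM + 1) in the 3 KO libraries (red) and the 3 WT libraries (blue), with the sterol shown by the marker and the mean of 3 libraries as a line. Each panel has its own axis from 0; KO lies above WT for Pparg, Cebpa, Fabp4, Lpl, Pnpla2 and Plin2 and below WT for Cebpb and Cebpd, and Cd36 and Adipoq lie near 0 in both genotypes.

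Pparg encodes PPARγ, and its gene lies on the plus strand at chr6:115360951-115490399 (GRCm38). It had 7.30, 2.30 and 12.3 FPKM in KO cells, against 0.304, 0.514 and 0.581 FPKM in WT cells. All KO libraries were above all WT libraries, and the KO libraries differed widely among themselves. The mean was 7.30 ± 5.0 FPKM in KO and 0.466 ± 0.145 FPKM in WT (SD, n = 3 each), and the log2 difference was 2.29 (SE 0.44, 95% interval 1.15 to 3.42, limma adjusted p = 0.0438). The ratio of KO to WT was 24.0, 4.46 and 21.2 for the 3 sterols in that order. These values rest on an estimated 108, 28.7 and 267.8 fragments in KO and 6.2, 11 and 12.4 fragments in WT. This call sits close to the threshold: leaving out any of the 6 libraries from the fit gave limma adjusted p-values of 0.0982 to 0.242.

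Cebpa encodes C/EBPα, the partner of PPARγ in the later phase of fat cell formation, and lies on the plus strand at chr7:35119293-35121928. It had 4.26, 1.51 and 3.25 FPKM in KO cells, against 0.654, 0.660 and 0.503 FPKM in WT cells. The groups did not overlap, and the KO library with 20(OH)Cholesterol lay nearest to WT, as it did for Pparg. The means were 3.01 ± 1.39 FPKM in KO and 0.606 ± 0.089 FPKM in WT (SD, n = 3 each), and the log2 difference of 1.26 (SE 0.34, 95% interval 0.39 to 2.12) missed the threshold at a limma adjusted p of 0.081. Of 12 alternatives that left out no single library it passed in 2, with limma adjusted p-values up to 0.314. These were quantile normalization, at a limma adjusted p of 0.0444, and the fit without the sterol term, at 0.0441. Leaving out any of the 6 libraries from the fit with the sterol term gave limma adjusted p-values of 0.133 to 0.332.

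Cebpb encodes C/EBPβ, an early regulator of fat cell formation that also takes part in inflammatory and stress responses, and lies on the plus strand at chr2:167688915-167690418. It had 43.7, 51.8 and 29.4 FPKM in KO cells, against 108, 145 and 109 FPKM in WT cells. Every KO library was below every WT library. The means were 41.6 ± 11.4 FPKM in KO and 121 ± 21 FPKM in WT (SD, n = 3 each), and Cebpb fell in KO with a log2 difference of -1.54 (SE 0.21, 95% interval -2.08 to -0.99, limma adjusted p = 0.0196). The ratio of KO to WT was 0.405, 0.357 and 0.269.

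Cebpd encodes C/EBPδ, which acts beside C/EBPβ at the start of fat cell formation, and lies on the plus strand at chr16:15887286-15891031. It had 10.9, 11.4 and 6.31 FPKM in KO cells, against 71.2, 72.3 and 63.1 FPKM in WT cells. The groups were far apart, and both C/EBP genes were lowest in the KO library with 20(OH)7DHC. The means were 9.52 ± 2.79 FPKM in KO and 68.9 ± 5.01 FPKM in WT (SD, n = 3 each), and the log2 difference was -2.77 (SE 0.21, 95% interval -3.30 to -2.24, limma adjusted p = 0.00462). Cebpd shares part of its locus with Spidr, a DNA repair gene on the other strand, whose own row had 1.28, 1.88 and 2.77 FPKM in KO against 10.5, 10.4 and 10.4 FPKM in WT. Spidr was called lower too (log2 difference -1.97, limma adjusted p = 0.0137), and since no strand setting is given, reads from the shared stretch cannot be assigned between the 2 genes. Cebpb likewise overlaps Tmem189, which has no row of its own, and the antisense genes within Pparg and Cebpa read at most 0.252 FPKM in any library.

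FPKM are divided by transcript length, so the C/EBP genes were set beside each other as levels. The difference between genotypes still varied with transcript length, as given below with Fabp4. Their summed level was 58.8, 64.7 and 39.0 FPKM in KO cells, against 180, 218 and 173 FPKM in WT cells. Cebpa made up 7.24%, 2.34% and 8.34% of that sum in KO and 0.364%, 0.303% and 0.291% in WT. The level of Cebpb over that of Cebpd was 4.03, 4.55 and 4.66 in KO and 1.52, 2.01 and 1.73 in WT, so Cebpd was lower by a larger factor than Cebpb with each sterol. Cebpb stayed the largest of the 3 in every library, at 74.3% to 80.1% of the sum in KO and 60.0% to 66.5% in WT. These shares are descriptions with no test, and they were not corrected for the trend over transcript length. With that trend removed, the log2 difference was -1.75 for Cebpb (1504 nt) and -2.56 for Cebpd (3746 nt), so the gap between the 2 genes was smaller.

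**Figure D2:**
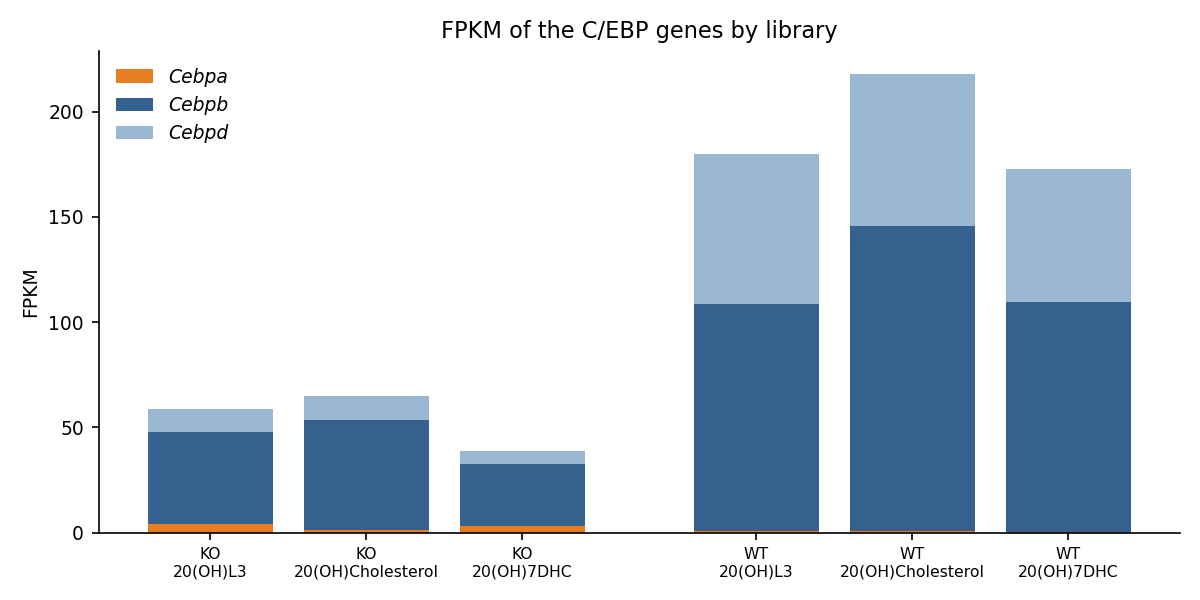
FPKM of Cebpa, Cebpb and Cebpd stacked for each of the 6 libraries, KO at the left and WT at the right, with 1 bar for each sterol and no error bars since each bar is 1 library. The KO bars reach 39.0 to 64.7 FPKM and the WT bars 173 to 218 FPKM, and Cebpa is a visible part of the KO bars alone.

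Fabp4 encodes the fatty acid carrier of fat cells, a textbook target of PPARγ, and lies on the minus strand at chr3:10204088-10208576. It had 35.3, 13.6 and 24.2 FPKM in KO cells, against 1.83, 3.42 and 1.76 FPKM in WT cells. The sterol with the lowest KO value, 20(OH)Cholesterol, had the highest WT value, and the groups still did not overlap. The means were 24.4 ± 10.9 FPKM in KO and 2.33 ± 0.937 FPKM in WT (SD, n = 3 each), and the log2 difference was 2.87 (SE 0.41, 95% interval 1.81 to 3.92, limma adjusted p = 0.0219). The ratio of KO to WT was 19.3, 3.97 and 13.8 for the 3 sterols. At 896 nt Fabp4 belongs to the short transcripts, and protein-coding genes under 1 kb were higher in KO by a median log2 of 1.03, 0.85 and 0.03 for the 3 sterols. With each library's trend over transcript length removed, the difference of Fabp4 was 2.46 (limma adjusted p = 0.0379), and that of Pparg was 2.18 and lost its call (limma adjusted p = 0.0506).

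Lpl encodes lipoprotein lipase, the secreted enzyme that releases fatty acids from circulating triglyceride, and lies on the plus strand at chr8:68880491-68907448. It had 26.6, 15.4 and 18.8 FPKM in KO cells, against 2.61, 3.26 and 2.44 FPKM in WT cells. The groups did not overlap, and the order of the sterols was the same as for Fabp4 in both genotypes. The means were 20.2 ± 5.73 FPKM in KO and 2.77 ± 0.435 FPKM in WT (SD, n = 3 each), and the log2 difference was 2.47 (SE 0.25, 95% interval 1.81 to 3.12, limma adjusted p = 0.00965). Its transcript has 4115 nt, and protein-coding genes of 1 to 6 kb had median log2 differences of -0.06, -0.07 and -0.02 for the 3 sterols.

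Plin2 encodes perilipin 2, the coat protein of lipid droplets in most cell types, and lies on the minus strand at chr4:86648386-86670060. It was the most abundant of the 10 genes, with 653, 712 and 496 FPKM in KO cells, against 250, 230 and 192 FPKM in WT cells. The lowest KO library was above the highest WT library. The means were 620 ± 111 FPKM in KO and 224 ± 29.9 FPKM in WT (SD, n = 3 each), and the log2 difference was 1.46 (SE 0.23, 95% interval 0.86 to 2.05, limma adjusted p = 0.0276). Quantile normalization lowered the difference to 0.99 and ended the call, at a limma adjusted p of 0.0552.

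Pnpla2 encodes adipose triglyceride lipase, which takes the first step in breaking down stored triglyceride, and lies on the plus strand at chr7:141455198-141460743. It had 35.9, 52.4 and 33.3 FPKM in KO cells, against 16.7, 18.5 and 16.7 FPKM in WT cells. The groups did not overlap, and in both genotypes 20(OH)Cholesterol gave the highest value. The means were 40.5 ± 10.4 FPKM in KO and 17.3 ± 1.03 FPKM in WT (SD, n = 3 each), and the log2 difference was 1.15 (SE 0.20, 95% interval 0.65 to 1.66, limma adjusted p = 0.0332).

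Cd36, the fatty acid translocase, and Adipoq, the fat cell hormone adiponectin, were not tested because their means lay under 1 FPKM. Cd36 had 0, 0.0545 and 0.0317 FPKM in KO cells and was listed at 0 in the 3 WT libraries. Adipoq had 0, 0 and 0.0687 FPKM in KO against 0, 0.070 and 0 FPKM in WT. Each nonzero value of these genes was worth about 1 fragment, so no difference could be seen at this depth. Both genes are known as PPARγ targets in fat cells, as Fabp4 and Lpl are.

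**Figure D3:**
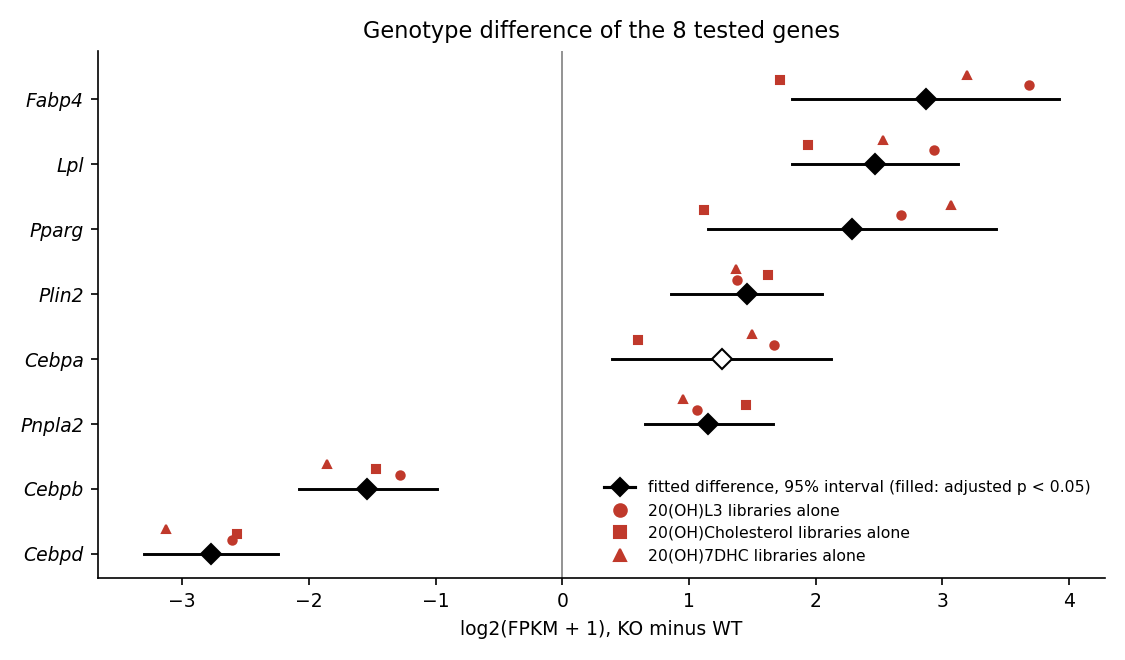
Difference in log2(FPKM + 1), KO minus WT, for the 8 tested genes: diamonds and lines give the limma estimate and its 95% interval, filled where the adjusted p was under 0.05, and red markers give the difference within each sterol, 1 library against 1. All red markers lie on the same side of 0 as their diamond, and the 20(OH)Cholesterol marker is nearest to 0 for Pparg, Cebpa, Fabp4 and Lpl.

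Within each sterol the comparison is 1 library against 1 and has no replicate check. With 20(OH)L3, 6 of the 8 genes were at least 2-fold higher in KO on the log2(FPKM + 1) scale and 2 at least 2-fold lower, against 17% and 16.5% of all tested rows. With 20(OH)Cholesterol the counts were 5 and 2, against 14.3% and 15.4% of rows. With 20(OH)7DHC they were again 5 and 2, against 4.59% and 10.1% of rows. The differences did not vary over the sterols in the same way for all genes. For Pparg the log2 difference was 2.67, 1.12 and 3.07, and for Cebpa it was 1.67, 0.60 and 1.5. For Plin2 it was 1.38, 1.62 and 1.37, and for Pnpla2 1.06, 1.45 and 0.95, so that 20(OH)Cholesterol gave the largest difference of these 2 droplet genes and the smallest of Pparg, Cebpa, Fabp4 and Lpl. No interaction of genotype and sterol could be tested, because a fit with it leaves no residual degrees of freedom.

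**Figure D4:**
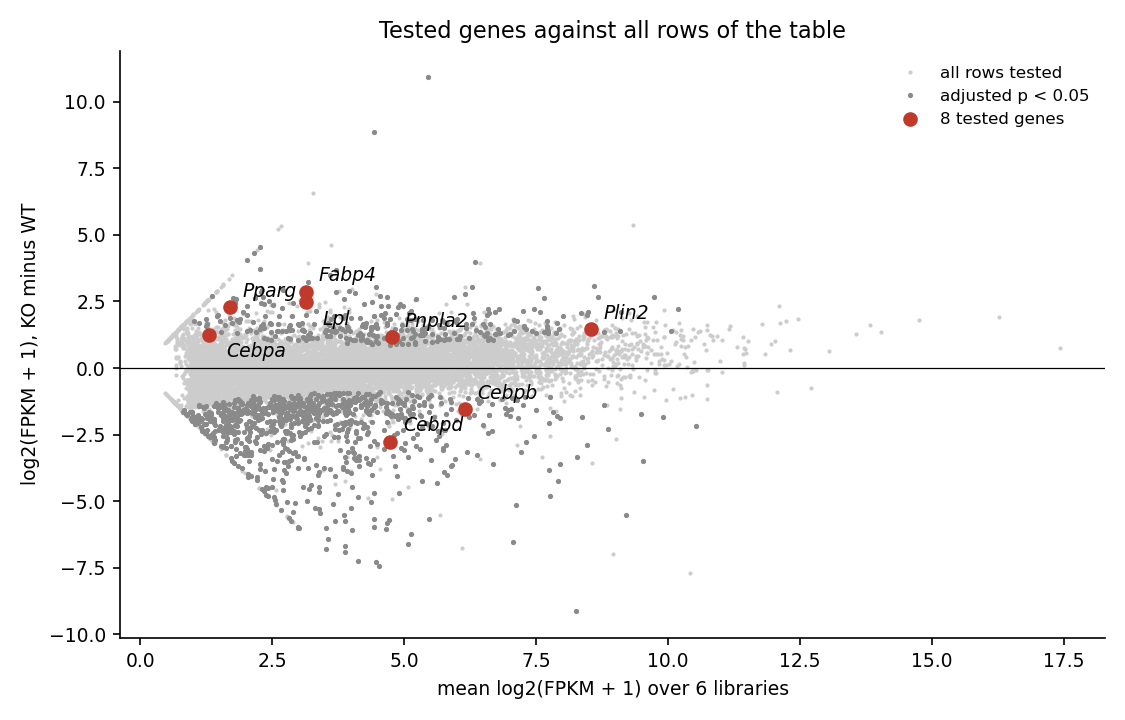
Mean log2(FPKM + 1) over the 6 libraries (x axis) and the difference in log2(FPKM + 1), KO minus WT (y axis), of the 12673 tested rows (light grey), of the rows with an adjusted p under 0.05 (dark grey) and of the 8 tested genes (red). Plin2 is the most abundant of the 8, Cebpa and Pparg are the least abundant, and Cebpd has the largest difference below 0.

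The sterols were also compared with each other at the same dose and time, with genotype as the second term and the 2 genotypes as the only repeats. By their names all 3 carry a hydroxyl group at the same carbon of the side chain. 20(OH)7DHC has an added double bond in the ring system relative to 20(OH)Cholesterol, and 20(OH)L3 is a stereoisomer of 20(OH)7DHC in that ring system. Over the 3 pairs of sterols limma called none of the 8 genes, with p-values adjusted over all rows and all 3 pairs and 0 genes at an unadjusted p under 0.05, and among all rows it called 0.0158% for 20(OH)L3 minus 20(OH)Cholesterol, 0.0395% for 20(OH)7DHC minus 20(OH)Cholesterol and 0.0395% for 20(OH)L3 minus 20(OH)7DHC. The lowest limma adjusted p of the 8 genes was 0.891 in each pair. The intervals are wide: for Pparg, 20(OH)7DHC minus 20(OH)Cholesterol was 1.04 with a 95% interval of -0.36 to 2.43, and 20(OH)L3 minus 20(OH)Cholesterol was 0.56 with an interval of -0.83 to 1.95. The smallest unadjusted limma p was 0.0682, for Cebpb in 20(OH)7DHC minus 20(OH)Cholesterol, with a difference of -0.60 and an interval of -1.27 to 0.07. These intervals leave room for differences over 2-fold between sterols, so the sterols are not shown to act alike on these genes.

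Promoters were read from RefSeq (GRCm38.p6) as 250 bases before to 50 bases after each start site. The table held 9 promoters of 7 of the 10 genes: 3 of Pparg and 1 each of Cebpa, Cebpb, Plin2, Pnpla2, Cd36 and Adipoq. The core motif of nuclear receptors, AGGTCA on either strand, was present in 4 of the 9, and in 16.3% of all 32851 promoters. Tandem copies spaced by 1 base, AGGTCANAGGTCA, which is the form PPARγ binds with RXR, were in none of the 9 and in 0.0396% of all promoters, and the palindrome TTGCGCAA bound by C/EBP proteins was in none of the 9 and in 0.183%. Any tandem match also counts as a match of the core motif. The 4 promoters with the core motif are shown since they include that of the regulator Pparg and that of the droplet coat gene Plin2, which were both higher in KO, beside that of Cd36, which was barely detected in either genotype. Each line gives the 250 bases before the start site, 5′ to 3′ on the strand of the gene, with the matched letters in capitals.
Pparg, upstream start site, chr6:115360894-115361143, plus strand: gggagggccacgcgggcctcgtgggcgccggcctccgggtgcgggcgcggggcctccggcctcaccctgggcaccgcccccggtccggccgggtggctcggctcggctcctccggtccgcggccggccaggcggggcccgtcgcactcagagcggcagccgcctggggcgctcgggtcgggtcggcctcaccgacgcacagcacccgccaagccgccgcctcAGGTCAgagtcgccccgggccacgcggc
Pparg, next start site, chr6:115362099-115362348, plus strand: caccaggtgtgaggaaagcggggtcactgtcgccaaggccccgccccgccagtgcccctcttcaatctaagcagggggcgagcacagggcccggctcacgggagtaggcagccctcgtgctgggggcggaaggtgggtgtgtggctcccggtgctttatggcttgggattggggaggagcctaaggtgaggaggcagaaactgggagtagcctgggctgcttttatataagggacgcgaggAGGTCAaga
Plin2, chr4:86670060-86670309, minus strand: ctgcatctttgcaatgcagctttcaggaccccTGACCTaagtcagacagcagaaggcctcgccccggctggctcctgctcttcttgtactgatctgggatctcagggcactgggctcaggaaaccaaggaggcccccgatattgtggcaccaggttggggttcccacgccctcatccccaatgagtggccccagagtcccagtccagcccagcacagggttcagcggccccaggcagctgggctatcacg
Cd36, chr5:17835897-17836146, minus strand: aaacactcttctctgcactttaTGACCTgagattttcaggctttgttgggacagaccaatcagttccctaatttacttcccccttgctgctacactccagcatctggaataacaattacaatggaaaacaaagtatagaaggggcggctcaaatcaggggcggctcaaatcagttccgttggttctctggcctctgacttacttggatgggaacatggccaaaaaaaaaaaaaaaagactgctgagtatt
The match began 28 and 9 bases before the start site in the Pparg promoters shown, 218 bases before it in Plin2 and 228 bases before it in Cd36. The remaining Pparg promoter, at chr6:115421816-115422065, held no match. Nor did the promoters of Cebpa, Cebpb, Adipoq and Pnpla2, the last of which was also called higher in KO. A match is a string of letters and not a binding site. Cd36 was too low in both genotypes for a difference to be seen, so its motif cannot be set against its values. The Pparg sequences shown held 82.4% and 63.6% G and C and the one not shown 40.8%, that of Plin2 held 61.6% and that of Cd36 43.2%.

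The partners and coregulators of PPARγ, such as its RXR partners and the NCoR and NCoA proteins, held 12 tested genes of 16, of which limma called 0, with 4 at an unadjusted p under 0.05. Over all tested rows, 4232 of 12673 had an unadjusted limma p under 0.05, and 2.43% were called higher and 6.64% lower. Their median difference was 0.16, against 0 over all rows. Rxra, the main RXR partner, had 14.5, 16.3 and 13.1 FPKM in KO, against 12.2, 14.4 and 13.1 FPKM in WT (log2 difference 0.13, limma adjusted p = 0.624). Ppard, the PPAR of most tissues, had 9.50, 14.9 and 17.1 FPKM in KO against 22.3, 29.8 and 27.1 FPKM in WT, without overlap, and missed the threshold (log2 difference -0.91, limma adjusted p = 0.0543). Rxra and Ppard were named after their values were seen.

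Of the other adipogenic transcription factors 11 of 17 were tested, with 1 higher and 1 lower in KO and a median of -0.30. For this list and the next, the shares called over all tested rows were 2.43% higher and 6.64% lower. Ddit3, which encodes CHOP, a stress-induced C/EBP protein that can block the binding of its partners, rose to 394, 244 and 189 FPKM in KO, against 102, 81.5 and 88.2 FPKM in WT (log2 difference 1.53, limma adjusted p = 0.0297). At 498 nt Ddit3 belongs to the short transcripts, whose higher median in KO is given with Fabp4. No value of Ddit3 with the length trend removed is given here. Egr2, an early factor upstream of Cebpb in cultured preadipocytes, fell to 0.936, 0.418 and 1.42 FPKM in KO, against 12.0, 6.86 and 6.26 FPKM in WT (log2 difference -2.27, limma adjusted p = 0.0189). Neither gene overlapped between genotypes. Among the inhibitors of adipogenesis 12 of 14 were tested, with a median of -0.26, and 1 was called. That was Sox9, a factor of cartilage and progenitor cells, at 10.8, 7.88 and 9.52 FPKM in KO against 3.81, 4.07 and 3.81 FPKM in WT (log2 difference 1.08, limma adjusted p = 0.0425). Dlk1, the preadipocyte marker Pref-1, read 45.5, 15.6 and 58.7 FPKM in KO against 14.2, 17.7 and 16.8 FPKM in WT (limma adjusted p = 0.157), so that its KO library with 20(OH)Cholesterol lay within the WT range. Dlk1 was named after its values were seen.

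No further gene of lipid droplets, lipolysis or triglyceride synthesis was called. Of the lipid droplet coat and lipolysis genes 9 of 16 were tested, limma called 0 with 2 at an unadjusted p under 0.05, and the median was 0.18. Mgll, the lipase of monoglycerides, was highest in KO with 20(OH)Cholesterol, at 8.28, 27.5 and 4.88 FPKM in KO against 3.54, 3.34 and 3.13 FPKM in WT (limma adjusted p = 0.109). G0s2, the inhibitor of adipose triglyceride lipase, had 2.14, 2.12 and 1.35 FPKM in KO against 4.74, 4.56 and 3.29 FPKM in WT (log2 difference -0.86, limma adjusted p = 0.0751). Mgll and G0s2 were named after their values were seen. Of the 15 symbols listed for triglyceride synthesis 10 were tested, and Agpat6, Agpat9 and Gpat3 had no row of their own. Of those 10 limma called 0, with 2 at an unadjusted p under 0.05, and the median was 0.08. Both counts at an unadjusted limma p under 0.05 stand beside 4232 of all 12673 tested rows. Of those rows limma called 2.43% higher and 6.64% lower.

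Genes of fatty acid uptake, binding and activation had 1 called higher and 2 lower in KO among 13 tested of 15, with a median of -0.29. Over all tested rows limma called 2.43% higher and 6.64% lower. Fabp5, the epidermal fatty acid carrier, had 55.8, 79.2 and 35.1 FPKM in KO, against 19.6, 15 and 15.9 FPKM in WT (log2 difference 1.63, limma adjusted p = 0.036). At 987 nt it is also a short transcript, and no value with the length trend removed is given for it here. Angptl4, the secreted inhibitor of lipoprotein lipase and itself a PPAR target, fell to 7.03, 21.1 and 6.19 FPKM in KO, against 79.3, 106 and 75.6 FPKM in WT (log2 difference -3.00, limma adjusted p = 0.00782). Slc27a3, of the fatty acid transport protein family, had 2.24, 1.83 and 4.94 FPKM in KO against 13.2, 13.1 and 10.5 FPKM in WT (log2 difference -1.80, limma adjusted p = 0.0384). The level of Lpl was thus above that of its inhibitor in 2 of 3 KO libraries and below it in all WT libraries.

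Adipokines and their receptors held 7 tested genes of 10, with 1 higher, 3 lower and a median of -0.01. The shares called over all tested rows were 2.43% higher and 6.64% lower. Rbp4, the plasma carrier of retinol, fell to 0.453, 0.531 and 0.206 FPKM in KO, against 15.8, 17.0 and 14.6 FPKM in WT (log2 difference -3.59, limma adjusted p = 0.00217). Apln, which encodes the peptide apelin, had a log2 difference of -1.67 (limma adjusted p = 0.0222), and Nampt, an enzyme of NAD synthesis that is also secreted, had one of -1.5 (limma adjusted p = 0.0268). Cdh13, the membrane receptor of adiponectin, had 2.98, 6.72 and 3.94 FPKM in KO against 0.907, 0.694 and 0.678 FPKM in WT (log2 difference 1.6, limma adjusted p = 0.046). Cdh13 stayed under 1 FPKM in every WT library and Rbp4 in every KO library. Both entered the test through their values in the other genotype, so their calls are description only. The fat cell hormones Lep and Retn and the secreted protease Cfd were listed at 0 in all 6 libraries.

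**Figure D5:**
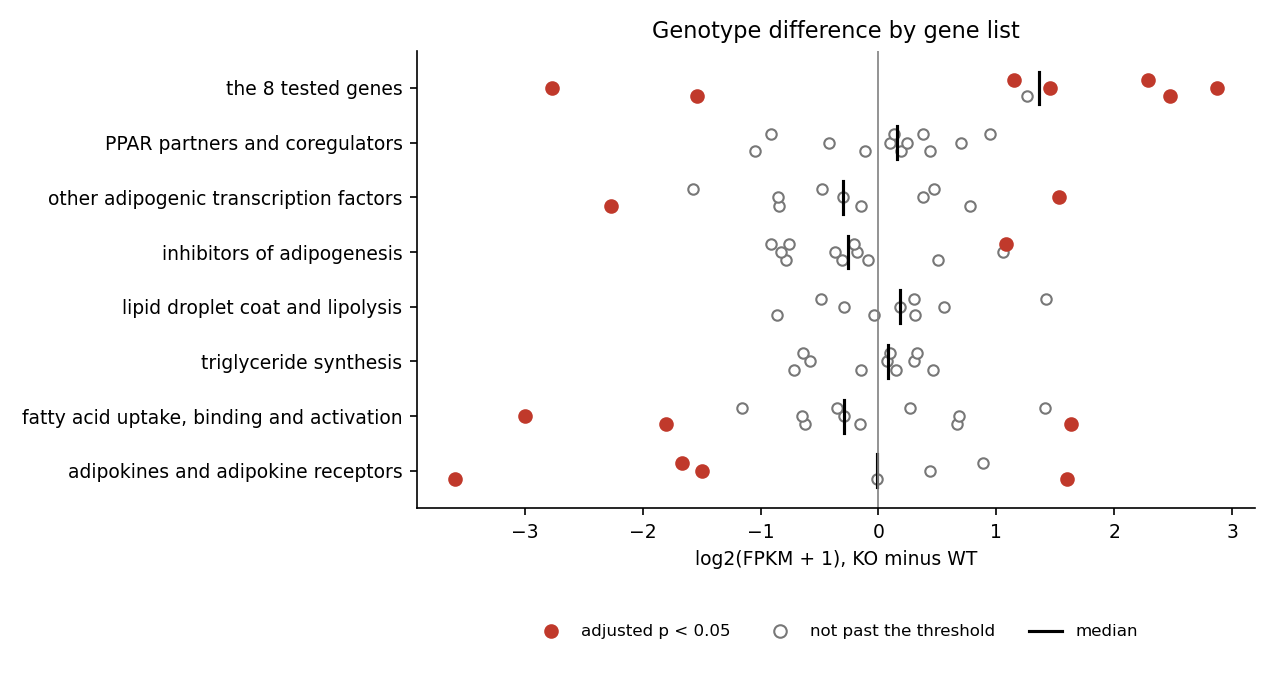
Difference in log2(FPKM + 1), KO minus WT, of each tested gene in the 8 tested genes and in 7 lists of related genes, with red points for an adjusted p under 0.05, open points for genes that were not called and a black line at the median of each list. The medians of the 7 related lists lie between -0.30 and 0.18, and that of the 8 tested genes is 1.36. The genes and lists were chosen with earlier results of these data known, so the contrast is description only.

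By 1 measure of likeness, the mean absolute distance of centred log2(FPKM + 1) values over the 6 libraries, the rows nearest to Pparg among 8286 were Mcam, a surface protein of pericytes and endothelium (0.240), Cotl1, an actin-binding protein (0.262), and Cadm4, a cell adhesion protein (0.297). Mcam had 69.9, 42.4 and 108 FPKM in KO, against 13.2, 10.2 and 13.1 FPKM in WT. The row nearest to Fabp4 among 8285 was Lpl (0.273), followed by Whrn, a scaffold protein of sensory hair cells (0.317), and Csrp2, a LIM domain protein of smooth muscle (0.320). With 6 libraries in 2 groups, any row with a similar genotype gap ranks high by this measure.

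Markers of the cells themselves moved with genotype beside these genes. Fibroblast markers had a summed level of 4440 to 5860 FPKM in KO and 6790 to 7070 FPKM in WT, most of which in KO was Vim, an intermediate filament gene found in many cell types, at 4070, 5010 and 4150 FPKM in KO against 3340, 2840 and 3100 FPKM in WT. Of the 6 fibroblast markers tested, Col1a1, Col1a2, Dcn and Lum were called lower in KO, against 6.64% of all tested rows. Dcn, the matrix proteoglycan decorin, had 21.2, 5.74 and 16.6 FPKM in KO against 1250, 1490 and 1150 FPKM in WT (log2 difference -6.55, limma adjusted p = 0.00344), and Lum, the proteoglycan lumican, had 0, 0.0687 and 0.0400 FPKM in KO against 10.7, 19.3 and 10.2 FPKM in WT (limma adjusted p = 0.00445). Lum stayed under 1 FPKM in every KO library and entered the test through its WT values, so its call is description only. In bulk RNA, fewer cells of a type and less RNA per cell cannot be told apart.

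The 8 mature adipocyte markers were near 0, summing to 0.699 to 0.833 FPKM in KO and 0.130 to 0.489 FPKM in WT, with Cidec, Lep, Cfd and Retn at 0 in every library. Pericyte and smooth muscle markers summed to 75.4 to 161 FPKM in KO and 71.3 to 78.9 FPKM in WT, and Mcam was the 1 of 5 tested that was called (limma adjusted p = 0.00993). Over all tested rows 2.43% were called higher in KO. Mcam alone carried the higher KO sum, and the median difference of the 5 markers was -0.13. Pdgfrb had 20.3, 21.1 and 42.0 FPKM in KO against 48.0, 57.6 and 51.6 FPKM in WT (log2 difference -0.97, limma adjusted p = 0.0893), and Notch3 likewise had every KO library below WT (log2 difference -0.88, limma adjusted p = 0.116). Endothelial markers summed to 1.85 to 3.42 FPKM in KO and 1.26 to 2.25 FPKM in WT, with Cldn5 at 0, and macrophage markers to 8.88 to 15.9 FPKM in KO and 12.2 to 16.0 FPKM in WT, with Adgre1 at 0. The endothelial sum hides opposite changes. Cdh5 had 2.00, 0.136 and 2.53 FPKM in KO against 0.0209, 0 and 0.0199 FPKM in WT. Emcn had 0, 0.446 and 0.0649 FPKM in KO against 1.22, 0.990 and 0.556 FPKM in WT. The macrophage sum also joins markers that moved apart, and limma called 0 of the 4 tested. Lyz2 had 2.17, 1.33 and 0.634 FPKM in KO against 4.69, 3.58 and 5.70 FPKM in WT (limma adjusted p = 0.0739). Cd14 likewise had every KO library below WT. Cd68 had 6.70, 7.86 and 3.35 FPKM in KO against 2.55, 2.95 and 4.21 FPKM in WT (limma adjusted p = 0.244). Keratinocyte markers summed to 6.33 to 12.3 FPKM in KO and 4.20 to 5.49 FPKM in WT, with Dsg3 at 0, and skeletal muscle markers to 0.705 to 3.83 FPKM in KO and 1.05 to 3.56 FPKM in WT. Krt10 was the highest keratinocyte marker, at 6.51, 8.32 and 5.85 FPKM in KO against 5.13, 3.87 and 4.25 FPKM in WT. It was not called (limma adjusted p = 0.171). Krt14 had 0.836, 3.75 and 0.244 FPKM in KO against 0.0862, 0.0829 and 0 FPKM in WT. Krt5 had 0.110, 0.130 and 0 FPKM in KO against 0.199, 0.115 and 0.457 FPKM in WT. Cdh5, Emcn, Krt14 and Krt5 were too low to be tested. The part of the fibroblast and pericyte markers in the differences of Pparg and the lipid genes was not tested.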

How the data were processed

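RNA was sequenced from 6 libraries, grouped by the genotype and treatment in the labels. The genotypes are as labelled, and a check of them on the targeted gene is not reported here. Other sterols and ethanol-treated cells stand in the series' design text, and the sample labels were followed. The authors deposited FPKM per gene, per the name of the deposited table, in 46958 rows, of which 1061 merge several symbols. The build GRCm38 and the tools Cuffdiff, Cufflinks 2.2.1 and STAR 2.5.4b are named, with no role or order, per the submitters' processing notes. What annotation, strand setting and filters were used is not given in the sources used here. GENCODE M21 (GRCm38) gave positions and transcript lengths, and RefSeq gave promoter sequences.

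Depth was estimated from low values, of which 97.0% to 98.0% per library were whole multiples of 1 fragment within 0.05, for transcripts of 900 to 4000 nt: 7700000 to 13400000 fragments in KO and 12500000 to 13100000 in WT. A single fragment on 1 kb was then worth 0.093 to 0.162 FPKM in KO and 0.095 to 0.100 FPKM in WT. FPKM is no count, so no count model was the main test, and intervals on fragments are not given.

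limma 3.58.1 in R 4.3.3 was fitted on log2(FPKM + 1) of the 12673 rows whose mean reached 1 FPKM, with genotype and sterol as additive terms, an intensity trend and 2-sided tests, which left 2 residual and 3.04 prior degrees of freedom. The script was tested on simulated data. Nothing in the labels says that libraries of a genotype came from separate cultures, so p-values measure the spread between these libraries only. The 10 genes and all lists were chosen with earlier results of these data known. All 10 genes were named, with up to 4 called genes per related list and the 3 nearest rows of at least 5 FPKM for Pparg and for Fabp4. Alternatives were other pseudocounts, filters and normalizations, no trend, no sterol or genotype term, removal of the length trend, and leaving out each library or sterol. Leaving out each library without the sterol term was added after seeing the data. Tables were prepared in Python 3.11.15 with pandas 2.3.3, numpy 2.4.6 and matplotlib 3.10.9.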

Additional observations from a re-analysis of the deposited data

Results flagged for a closer look

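In 10 cases a pair of sterols differed in opposite directions in KO and in WT. These were 5 of the 8 tested genes for 20(OH)L3 minus 20(OH)Cholesterol and 3 of 8 for 20(OH)7DHC minus 20(OH)Cholesterol. For 20(OH)L3 minus 20(OH)7DHC they were 2 of 8. The share of opposite signs over all tested rows was not computed and some of the values lie close to 0, so the count is description only. Each rests on 1 library per genotype and sterol, the difference between genotypes was not tested, and all values are on the log2(FPKM + 1) scale. For 20(OH)L3 minus 20(OH)Cholesterol, Fabp4 differed by 1.32 in KO and -0.64 in WT, Pparg by 1.33 in KO and -0.22 in WT, Cebpa by 1.07 in KO and -0.01 in WT, and Lpl by 0.75 in KO and -0.24 in WT. Plin2 differed in the other sense for the same pair, by -0.13 in KO and 0.12 in WT. For 20(OH)7DHC minus 20(OH)Cholesterol, Fabp4 differed by 0.79 in KO and -0.68 in WT, Cebpa by 0.76 in KO and -0.14 in WT, and Lpl by 0.27 in KO and -0.31 in WT. For 20(OH)L3 minus 20(OH)7DHC, Cebpb differed by 0.56 in KO and -0.02 in WT, and Pnpla2 by 0.11 in KO and -0.0033 in WT. The KO library with 20(OH)Cholesterol, which enters 8 of the 10 cases, had the lowest estimated depth, 7700000 fragments, and its part in these values was not tested.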

How the results depend on the processing

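Every difference between KO and WT of the 8 tested genes kept its direction under all alternatives run, but the number of calls depended on the setting. Of all tested rows, 308 were called higher and 842 lower in KO. Without a filter on low values these counts were 25 and 242, without the sterol term 735 and 1336, and 576 rows were higher with quantile normalization and 480 with the length trend removed. Without 20(OH)L3 the counts were 6 higher and 121 lower, without 20(OH)Cholesterol 0 and 0 by limma, and without 20(OH)7DHC 1139 rows were higher. Leaving out a library in the fit with a sterol term gave 0 to 1095 higher and 0 to 830 lower. Of the 8 genes, 5 were called higher and 2 lower. Without a filter 0 were higher and 1 lower, and that one was Cebpd (limma adjusted p = 0.0303). Without 20(OH)L3 or without 20(OH)Cholesterol 0 were higher and 0 lower, and without 20(OH)7DHC 3 were higher. Leaving out a library in the fit with a sterol term gave 0 to 3 genes higher and 0 to 2 lower.

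In the fit with a sterol term, leaving out a library takes its sterol out of the comparison and leaves 1 residual degree of freedom. Leaving out a library and the sterol term together, an alternative chosen after seeing the data, gave 98 to 3060 rows higher and 533 to 3091 lower, and 2 to 6 of the 8 genes higher and 1 to 2 lower. The upper ends for all rows came without the KO library with 20(OH)7DHC. In these fits Fabp4, Lpl and Cebpd were called in 6 of 6, Plin2 in 4, Cebpb and Pnpla2 in 3, and Pparg and Cebpa in 2. The genes called between sterols stayed at 0 in every alternative. The fit with the sterol term is itself the paired comparison, of 1 KO with 1 WT library in each sterol, and the counts without that term are given above. The data hold 1 library per genotype and sterol, and Pparg, Cebpa, Cd36 and Adipoq in WT rest on few fragments.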
